A study of Mus musculus with 3 samples.

Results

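The microRNAs miR-23a, miR-27a and miR-24 are made from one cluster of precursors in the mouse genome, and miR-23b, miR-27b and again miR-24 from another. Their reads were counted in small RNA libraries of CD1 mice (an outbred stock): 1 library of mature sperm, 1 of adult testis and 1 of adult uterus. A read was taken as a member when its first 20 bases equalled those of a mature microRNA cut from either arm of the 6 precursors Mir23a, Mir27a and Mir24-2 (the a cluster) and Mir23b, Mir27b and Mir24-1 (the b cluster). This gives 11 mature members out of 1628 mature mouse microRNAs that could be matched in this way, since miR-24-3p is the same in both of its precursors. All 11 had reads in uterus, 8 had reads in sperm and 6 in testis. The sperm came from the cauda epididymis, where mature sperm are stored, and went through a buffer that lyses somatic cells. Testis and uterus were adult tissues, with no cell isolation named in the labels. How many animals were used, and their exact ages, are not given in the sources used. Since each source is 1 library, differences between sources could not be set against a spread between replicates and were not tested. Every interval is a 95% interval for counting error alone, and PCR copies of a molecule are counted as separate reads.

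A microRNA is cut from a hairpin-shaped precursor as a duplex of a 5′ arm (5p) and a 3′ arm (3p), and usually 1 arm is kept in an Argonaute protein while the other is degraded. The kept strand finds messenger RNAs mainly through its seed, bases 2 to 8 from its 5′ end, and lowers their translation and stability. In each cluster the precursors of miR-23, miR-27 and miR-24 are transcribed together, so the 3 microRNAs start from one primary transcript. The clusters are widely expressed, and miR-23 and miR-27 are best known from endothelial cells and the growth of vessels, miR-27 also from fat cells, where it restrains differentiation, and miR-24 from control of the cell cycle and of apoptosis.

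The mature sequences carry most of what follows, since 1 base tells the a and b forms of the main arms apart. Seeds are in capitals, and the sequences are those of RefSeq for GRCm38.p6, where 10 of the 11 members matched; miR-23b-3p is the other member.
miR-23a-3p: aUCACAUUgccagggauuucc
miR-27a-3p: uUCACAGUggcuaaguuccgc
miR-27b-3p: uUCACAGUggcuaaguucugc
miR-24-3p: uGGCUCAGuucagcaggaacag
miR-23a-5p: gGGGUUCCuggggaugggauuu
miR-23b-5p: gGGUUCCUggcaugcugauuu
miR-27a-5p: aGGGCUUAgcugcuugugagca
miR-27b-5p: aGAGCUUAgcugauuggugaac
miR-24-2-5p: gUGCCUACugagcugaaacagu
miR-24-1-5p: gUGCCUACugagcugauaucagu
The 2 forms of miR-23-3p share a seed, as do those of miR-27-3p and those of miR-24-5p, whereas the 5p arms of Mir23a and Mir23b have different seeds, and so have those of Mir27a and Mir27b. The seeds of miR-23-3p and miR-27-3p differ from each other and from that of miR-24-3p. Counted from the 5′ end, miR-27a-3p and miR-27b-3p differ by C19U, and the forms of miR-23-3p also part at base 19, so a read of 18 nt cannot be given to either. Of the reads that begin with the 18 shared bases and reach base 19, those with a base of neither form made up 0.0339% for miR-23-3p in sperm and 0.106% in uterus. For miR-27-3p they made up 0.597% in uterus and none of 349 reads in sperm.

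The a cluster lies on chromosome 8 of GRCm38.p6, plus strand, within 404 bp from the start of Mir23a (84208518 to 84208592) through Mir27a (84208672 to 84208758) to the end of Mir24-2 (84208815 to 84208921), outside protein-coding genes. The b cluster lies on chromosome 13, plus strand, within 792 bp, from Mir23b (63300484 to 63300557) through Mir27b (63300712 to 63300784) to Mir24-1 (63301208 to 63301275). It sits inside the protein-coding gene 2010111I01Rik on the same strand and inside Fancc on the opposite strand. Mir23b is intronic in both, whereas Mir27b and Mir24-1 overlap exons of annotated transcripts of 2010111I01Rik.

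Depth was 15690722 reads in the sperm library, 23783785 in the testis library and 15876066 in the uterus library, all of 18 to 44 nt. Reads of 20 to 26 nt whose first 20 bases lie within an annotated microRNA hairpin were 2.94% of the sperm library, 0.907% of the testis library and 77.2% of the uterus library, and levels below are reads per 1000000 of these hairpin reads (RPM). Marker microRNAs of other cell types stood at very different levels in the libraries. The 4 epithelial markers (miR-200a-3p, miR-200b-3p, miR-200c-3p and miR-141-3p) summed to 88569.5 RPM in sperm, 139 in testis and 567 in uterus. The 4 of 5 leukocyte markers that could be matched summed to 3672 RPM in sperm, 195 in testis, where miR-142a-3p had no read, and 104 in uterus. Of these sums miR-146a-5p alone made 3368, 181 and 72.9 RPM. The endothelial marker miR-126a-3p stood at 302, 4.64 and 7.67 RPM, from 139 reads in sperm, 1 read in testis and 94 reads in uterus. The 4 of 5 germ cell markers that could be matched summed to 40133 RPM in sperm, 26948 in testis and 23.7 in uterus, where miR-202-5p had no read. In sperm 39940.1 RPM of this sum was miR-184-3p, and the other 3 were more than 4-fold lower in sperm than in testis: miR-34b-5p had 104 and 6877 RPM, miR-449a-5p 84.7 and 4137 RPM, and miR-202-5p 4.34 and 11557 RPM. The 2 erythroid markers summed to 63.0, 218 and 100.2 RPM, with miR-144-3p at 0 in sperm. The smooth muscle markers miR-143-3p, miR-145a-5p, miR-1a-3p and miR-133a-3p are not reported here. In such bulk libraries fewer cells of a type and less RNA per cell cannot be told apart.

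miR-24-3p had the most reads of all members in every library and 3p arms held nearly all member reads. Together the 11 members had 7427 reads in sperm, against 602 in testis and 46316 in uterus, which is 1.61%, 0.279% and 0.378% of the hairpin reads. miR-24-3p, linked to cell-cycle and apoptosis control, had 4169 reads in sperm, against 328 in testis and 20693 in uterus, or 9052 RPM (8779 to 9331), 1521 RPM (1361 to 1695) and 1688 RPM (1665 to 1711). Its interval in sperm lay far above those of both tissues, whose intervals overlapped.

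miR-23a-3p, a microRNA studied in endothelial cells and in muscle, had 2183 reads in sperm, against 113 in testis and 12589 in uterus, or 4739.8, 524 and 1027 RPM. miR-23b-3p, with the same seed, had 688, 120 and 8161 reads, or 1494, 556 and 666 RPM. Both were highest in sperm. The a form was lower in testis than in uterus, whereas the intervals of the b form in these tissues overlapped (461 to 665 and 651 to 680.4 RPM). The a form stood far apart from the b form in sperm (4543 to 4943 RPM against 1384 to 1609.7 RPM), whereas in testis the intervals of the 2 forms overlapped (432 to 630.0 and 461 to 665 RPM).

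miR-27a-3p, known from fat and endothelial cells, had 69 reads in sperm, against 16 in testis and 2379 in uterus, or 149.8 RPM (117 to 189.6), 74.2 (42.4 to 120.5) and 194 (186 to 202). miR-27b-3p had 275, 18 and 1893 reads, or 597 RPM (529 to 672), 83.5 (49.5 to 132) and 154 (148 to 162). Among reads of 20 nt and longer the order of the libraries thus differed between the forms. The b form was highest in sperm, and the a form was higher in uterus than in testis, with sperm at 0.772 of uterus. Uterus also had 7089 miR-27-3p reads of 18 nt, which cannot be given to either form, and 2631 of 19 nt with the b base. The order of each form with such short reads is therefore not known. With the full mature sequence alone miR-27a-3p was higher in sperm than in uterus, at a log2 ratio of 1.96. In testis both rested on fewer than 20 reads, so no difference between them was detectable at this depth.

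The 5p arms were scarce. miR-27b-5p was the only one with reads in all 3 libraries, namely 10 in sperm, 7 in testis, and in uterus 201. These are 21.7, 32.5 and 16.4 RPM, with overlapping intervals. miR-23b-5p had 339 reads in uterus and 0 in both other libraries, and miR-23a-5p 13 reads in uterus and 0 in the others. miR-24-2-5p had 24 reads in sperm and 31 in uterus, miR-27a-5p had 9 in each, and miR-24-1-5p had 8 reads, all in uterus. A count of 0, taken as at most 3 reads, allows up to 6.51 RPM in sperm, 13.9 RPM in testis and 0.245 RPM in uterus, so that the 27.7 RPM of miR-23b-5p in uterus lay above the level allowed in sperm and in testis, whereas the 1.06 RPM of miR-23a-5p and the 0.653 RPM of miR-24-1-5p lay below it.

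**Figure D1:**
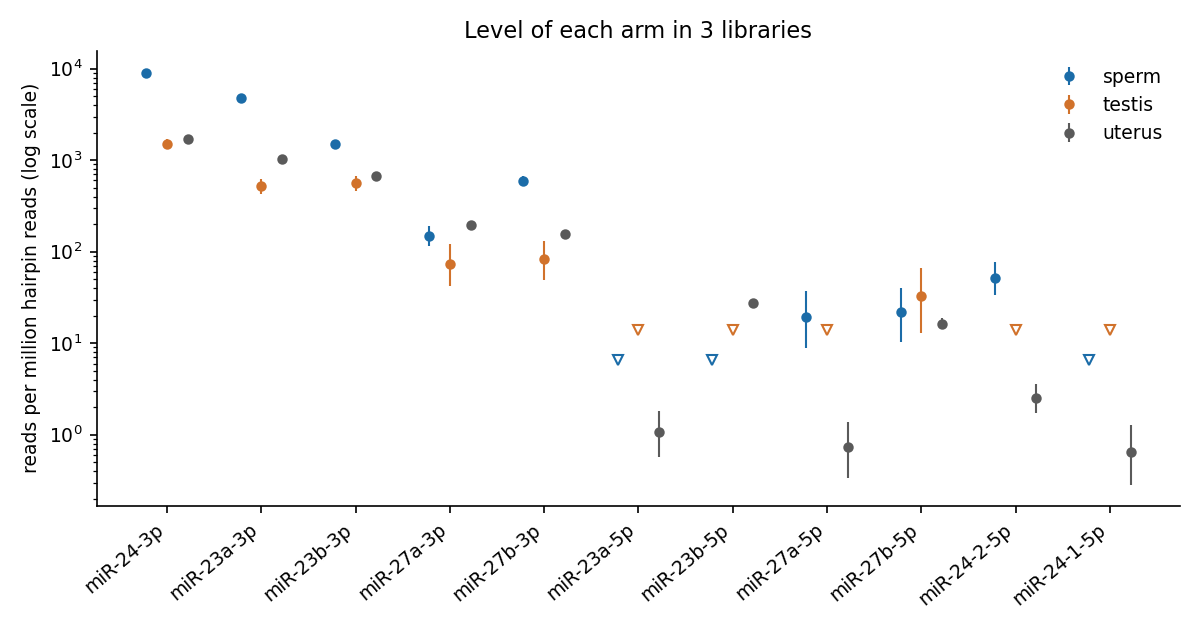
Reads per 1000000 hairpin reads (log scale) of each arm in sperm, testis and uterus, with 1 library each. Points carry exact Poisson 95% intervals, and open triangles stand at the level that a count of 0 allows. miR-24-3p is the highest arm in each library, and all 5p arms lie below 100 RPM.

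The 3 microRNAs were higher in sperm than in testis. Relative to testis, miR-23-3p (a and b summed) was 5.77-fold higher in sperm (5.05 to 6.62), miR-27-3p 4.74-fold (3.33 to 6.95) and miR-24-3p 5.95-fold (5.32 to 6.68), and none of these directions flipped under the other scalings tried. Among single members, miR-23a-3p was 9.04-fold higher (7.48 to 11.03), miR-27b-3p 7.15-fold (4.44 to 12.3), miR-23b-3p 2.68-fold (2.21 to 3.29) and miR-27a-3p 2.02-fold (1.16 to 3.73). The larger fold was that of the a form for miR-23 and that of the b form for miR-27. A fold of at least 4 was used as the size worth counting, and a microRNA was counted only if it reached 100 reads in one of the libraries compared. Of the 4 members that qualified, 3 passed this fold upward in sperm and 0 downward. Of the 128 mature microRNAs that qualified, 32.8% were higher and 25% lower. Among the 3, miR-27b-3p reached 100 reads in sperm only, with 275 against 18 in testis. miR-27a-3p, with 69 and 16 reads, did not qualify. The minimum thus shaped the count and the median of the members. With a minimum of 10 reads 3 members passed upward and 0 downward. The median log2 ratio of the 4 members was 2.71, against 0.15 over all 128, where a microRNA with 0 reads in 1 library stands at its bound. The epithelial, leukocyte and endothelial markers above were higher in sperm too, and their part in this result was not tested.

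Between sperm and uterus the direction depended on the scaling. miR-23a-3p was 4.62-fold higher in sperm (4.41 to 4.83) and miR-24-3p 5.36-fold (5.19 to 5.54), which made 2 of the 7 members with enough reads, while 39.5% of 210 microRNAs were at least 4-fold higher. miR-23b-5p had 0 reads in sperm against 339 in uterus. With the 0 taken as at most 3 reads its ratio was at most 0.236, which passes 4-fold downward, where 18.6% of the 210 were lower. Its exact Poisson upper limit in sperm was 8.01 RPM, against 27.7 RPM in uterus, which is less than 4-fold apart. With RefSeq mature reads as the denominator, or the full mature sequence, 0 members passed downward. The median log2 ratio was 1.17 for the 7 members and 0.86 over all 210. miR-27b-3p was 3.87-fold higher in sperm (3.39 to 4.39), miR-23b-3p 2.24-fold (2.07 to 2.43), and miR-27a-3p had a ratio of 0.772 (0.599 to 0.981). These values use hairpin reads as the denominator. Uterus is a library made mostly of microRNAs, and the log2 ratios shift by −4.72 with all reads as the denominator, by −1.92 with TMM factors and by −1.29 with DESeq2 size factors. With all reads as the denominator each of the 3 microRNAs was lower in sperm, and no member was 4-fold higher in sperm under all reads, TMM or DESeq2 scaling. With TMM factors miR-24-3p alone of the 3 stayed higher, at a log2 ratio of 0.51, and with DESeq2 size factors miR-24-3p and miR-23-3p did, at 1.13 and 0.59.

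Between testis and uterus the size of the difference depended on the scaling too. With hairpin reads as the denominator 0 of the 7 members with enough reads were 4-fold apart, but 7 were at least 4-fold lower in testis with all reads, 6 with TMM factors and 4 with DESeq2 size factors. On the scale of hairpin reads 29.9% of 211 microRNAs passed 4-fold upward in testis and 10.4% downward, and the median log2 ratio was −0.89 for the 7 members and 0.68 over all 211. Of the 7 members miR-23b-5p had 0 reads in testis and a ratio of at most 0.503, so a 4-fold lower level could not be seen for it. Any of the 211 with 0 reads in testis also stands at its bound, which can hide a lower level. miR-24-3p stood at a ratio of 0.901 (0.805 to 1.005) and miR-23b-3p at 0.836 (0.692 to 1.001), both intervals reaching 1, while miR-23a-3p was lower in testis at 0.51 (0.42 to 0.614). miR-27a-3p stood at 0.382 (0.218 to 0.622) and miR-27b-3p at 0.541 (0.32 to 0.857). The log2 ratios shift by −6.41 with all reads as the denominator, by −2.54 with TMM factors, by −1.33 with DESeq2 size factors and by 0.24 with RefSeq mature reads, which takes miR-24-3p to 0.09. These 3 comparisons share their libraries, so they are not independent of each other.

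**Figure D2:**
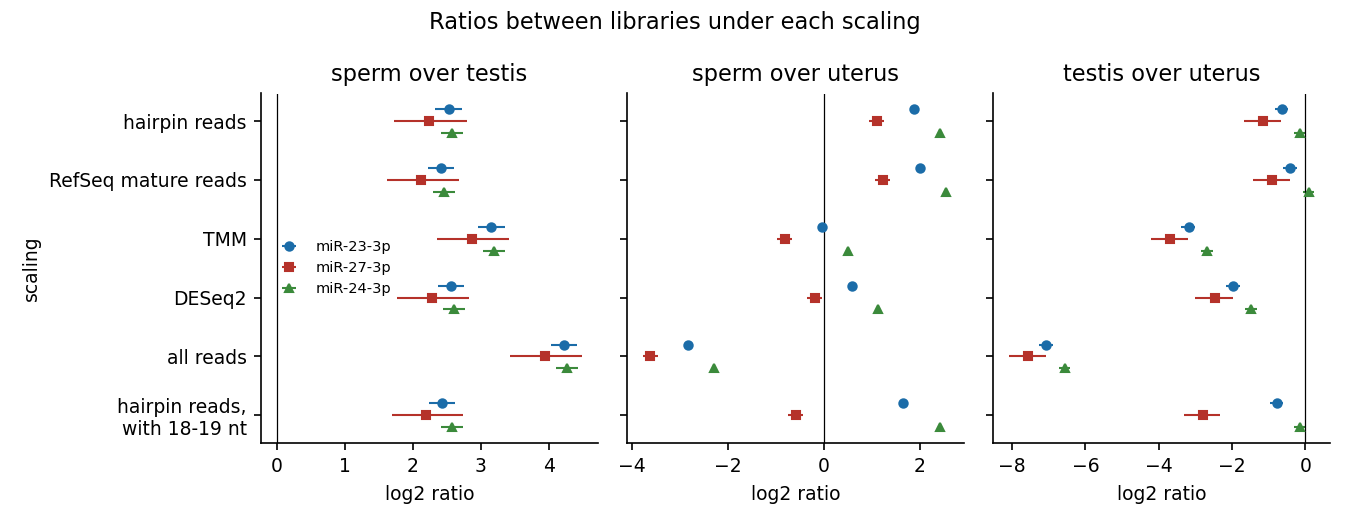
Log2 ratio of miR-23-3p, miR-27-3p (a and b summed) and miR-24-3p between libraries under each scaling (rows), with conditional exact binomial 95% intervals. All values of sperm over testis lie right of 0, those of sperm over uterus lie on both sides, and the miR-27-3p value of sperm over uterus moves left of 0 once reads of 18 and 19 nt are counted.

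The a and b clusters were compared within each library, which needs no scaling. In sperm the a cluster led for miR-23 and the b cluster for miR-27. miR-23a-3p held 76.0% of the miR-23-3p reads in sperm (74.4 to 77.6%), 48.5% in testis (41.9 to 55.1%) and 60.7% in uterus (60.0 to 61.3%). miR-27a-3p held 20.1% of the miR-27-3p reads in sperm (15.95 to 24.7%), 47.1% in testis (29.8 to 64.9%) and 55.7% in uterus (54.2 to 57.2%). In sperm, then, the shares of the a form lay on opposite sides of 50% for 2 microRNAs of the same cluster, in uterus both lay above it, and in testis neither could be told from it. For miR-24 only the 5p arms show their precursor: Mir24-2 of the a cluster gave 24 of 24 reads in sperm (85.8 to 100%) and 31 of 39 in uterus (79.5%, 63.5 to 90.7%), and testis had no read of either. The 5p arms of the other pairs went the other way in uterus, where miR-23a-5p held 13 of 352 reads (3.69%, 1.98 to 6.23%) and miR-27a-5p 9 of 210 (4.29%, 1.98 to 7.98%). In sperm miR-27a-5p held 9 of 19 reads (47.4%, 24.4 to 71.1%).

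The share of miR-27a-3p in uterus depended on which lengths were counted. Among reads that held the full mature sequence it was 19.5%, and 27.7% in sperm. When reads of 19 nt were added it was 35.8% in uterus (34.7 to 36.98%) and 20.3% in sperm (16.2 to 24.95%). A read of 19 nt that ends in U counts as the b form, but may also be an 18 nt form of either with an added U, and these cannot be told apart. The share of miR-23a-3p moved less, to 56.8% with the full sequence and 63.6% with reads of 19 nt in uterus, and it stayed between 74.9 and 76.0% in sperm under these counts.

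**Figure D3:**
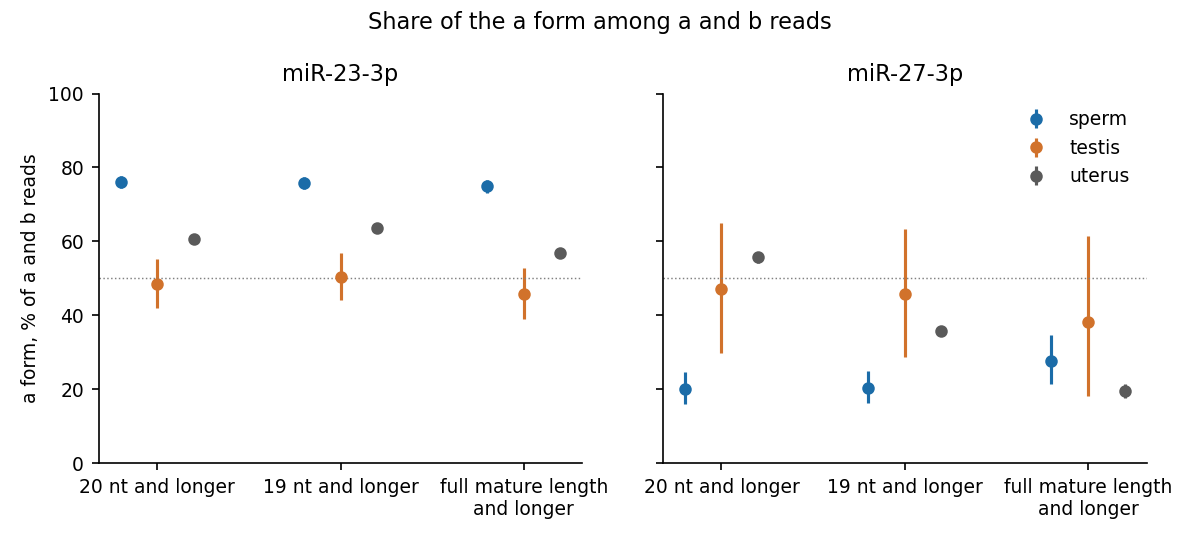
Share of the a form among a and b reads of miR-23-3p (left) and miR-27-3p (right) in sperm, testis and uterus, for 3 choices of the shortest read counted, with exact 95% intervals and a dotted line at 50%. For miR-27-3p the uterus value is 55.7% for reads of 20 nt and longer and 19.5% for the full mature length, while the sperm values stay between 20.1 and 27.7%.

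Within a precursor the 3p arm had more reads than the 5p arm in each library. Among reads of 20 nt and longer, the highest 5p share was that of Mir27a in sperm and that of Mir27b in testis and in uterus. In uterus this leaves out 9869 miR-27-3p reads of 18 and 19 nt. Shares with such reads were not computed, so the rank of Mir27b there holds for the longer reads alone. The 5p share of Mir27b was 3.51% in sperm (10 of 285 reads, 1.70 to 6.36%), 28.0% in testis (7 of 25, 12.1 to 49.4%) and 9.60% in uterus (201 of 2094, 8.37 to 10.9%). In sperm 4 of its 10 reads were 25 nt long and 3 were 31 or 33 nt long, and in testis 3 of 7 were 28 to 30 nt long; with reads of 20 to 24 nt alone the share was 1.08% in sperm and 18.2% in testis. The 5p share of Mir27a was 11.5% in sperm (9 of 78, 5.41 to 20.8%), 0 of 16 in testis and 0.377% in uterus (0.172 to 0.714%). Mir23b gave 3.99% 5p reads in uterus (3.58 to 4.43%), but 0 of 688 in sperm, with an exact upper bound of 0.535%, and 0 of 120 in testis, with an exact upper bound of 3.03%. Mir23a gave 0.103% in uterus (0.0549 to 0.176%) and none among 2183 reads in sperm. Both miR-24 precursors together gave 0.572% in sperm (0.367 to 0.85%), 0 of 328 in testis and 0.188% in uterus (0.134 to 0.257%). The share of Mir23b was thus lower in sperm than in uterus, and those of Mir27a and of the miR-24 precursors were higher in sperm. With the full mature sequence the share of Mir27a was 13.1% in sperm (5.84 to 24.2%) and 2.42% in uterus (1.11 to 4.54%), a smaller gap.

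Although the members of a cluster are transcribed together, the reads of their mature forms were far from equal in number. The ratios below are of reads. Whether adapter joining and RT-PCR capture each sequence equally was not tested. miR-27a-3p reached 0.0316 of miR-23a-3p in sperm (0.0245 to 0.0402), 0.142 in testis (0.0783 to 0.24) and 0.189 in uterus (0.181 to 0.197). miR-27b-3p reached 0.40 of miR-23b-3p in sperm (0.346 to 0.46), 0.15 in testis (0.086 to 0.247) and 0.232 in uterus (0.221 to 0.244). In sperm the ratio of the b cluster was thus well above that of the a cluster, while in testis the intervals of both clusters overlapped. The order of the libraries depended on the lengths counted. With the full mature sequence the a ratio was 0.0282 in sperm (0.0211 to 0.0371) and 0.0374 in uterus (0.0336 to 0.0415), and the b ratio was 0.219 in sperm (0.181 to 0.264) and 0.203 in uterus (0.192 to 0.215), with overlapping intervals in both cases. With reads of 19 nt added the b ratio was 0.398 in sperm (0.345 to 0.458) and 0.507 in uterus (0.489 to 0.525), so that uterus was then the higher, and the a ratio was 0.0323 and 0.162. Both clusters together, with reads of 18 and 19 nt, gave 0.121 in sperm, 0.143 in testis and 0.573 in uterus, where reads of 20 nt and longer gave 0.12, 0.146 and 0.206. miR-24-3p, which both clusters make, was 1.45 times as frequent as all miR-23-3p in sperm (1.38 to 1.52), 1.41 times in testis (1.19 to 1.67) and 0.997 times in uterus (0.978 to 1.02).

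miR-27-3p in uterus was mostly shorter than 20 nt. Its most frequent read in that library, shown here because both precursors can give it, stops before the base that tells the forms apart.
miR-27-3p, 18 nt: ttcacagtggctaagttc
miR-27a-3p, 20 nt: ttcacagtggctaagttccg
miR-27b-3p, 21 nt: ttcacagtggctaagttctgc
The 18 nt read was found 7089 times in uterus, 4 times in sperm and once in testis. Reads of 18 and 19 nt made up 2.55% of all miR-27-3p reads in sperm (9 of 353, 1.17 to 4.78%), 5.56% in testis (2 of 36, 0.68 to 18.7%) and 69.8% in uterus (9869 of 14141, 69.0 to 70.5%). Mature microRNAs with at least 100 reads in uterus made 183 groups by their first 18 bases, and none had a higher share there than miR-27-3p. In 2 of these groups, that of miR-27-3p included, the share was at least 50%. The median over the 183 groups was 1.11%. The tables hold no read below 18 nt, so still shorter forms would not be seen. miR-23-3p also had more short reads in uterus, at 15.9% (15.4 to 16.4%), than in sperm, at 1.204% (0.84 to 1.67%), or in testis, at 7.54% (4.60 to 11.5%), whereas for miR-24-3p the share was 0.263% in sperm, 0.304% in testis and 0.284% in uterus. With the short reads counted, the level of miR-27-3p was 766 RPM in sperm, 167 RPM in testis and 1154 RPM in uterus. Sperm over uterus was then 0.664 (0.596 to 0.738), where reads of 20 nt and longer alone gave 2.14 (1.91 to 2.39).

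The longer forms differed as well. The leading length of miR-27a-3p was 21 nt in sperm (51 of 69 reads, 73.9%) and in testis (10 of 16, 62.5%) but 20 nt in uterus (1595 of 2379, 67.0%). That of miR-27b-3p was 21 nt in all 3 libraries, with 55.3% in sperm, 61.1% in testis and 61.0% in uterus. Among reads of 20 nt and longer, the leading length of the a form alone thus differed between uterus and the other libraries. Reads of 19 nt with the base of the b form numbered 2631 in uterus, more than the 1154 b reads of 21 nt there, and 3 in sperm. Among b reads of 20 nt and longer, those of 20 nt made up a smaller share in uterus than in sperm. They were 28.7% in sperm (79 reads, 23.5 to 34.5%) and 10.2% in uterus (193 reads, 8.87 to 11.6%). The leading length of miR-23a-3p was 22 nt in sperm, testis and uterus (35.7%, 38.1% and 41.8%), 1 base beyond its RefSeq entry. miR-23b-3p led at 21 nt in sperm (39.7%) and at 24 nt in testis (38.3%) and uterus (35.1%).

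**Figure D4:**
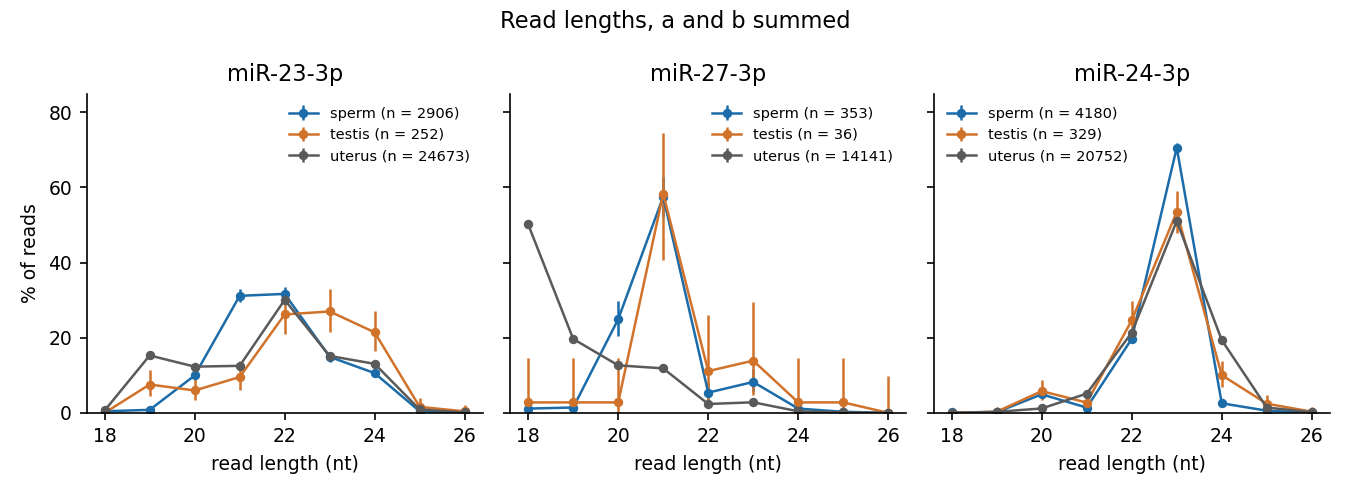
Share of reads at each length from 18 to 26 nt for miR-23-3p and miR-27-3p (a and b summed) and miR-24-3p, with n the reads of all lengths and exact 95% intervals. In uterus miR-27-3p peaks at 18 nt with 50.1% of its reads, against 21 nt in sperm with 57.5%, while miR-24-3p peaks at 23 nt in all 3 libraries.

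miR-24-3p was mostly found with an added uridine. Its leading read in every library was 23 nt long, its 22 genomic bases followed by a T that is in neither hairpin, and this base is in capitals here.
miR-24-3p, 23 nt: tggctcagttcagcaggaacagT
This read was counted 2605 times in sperm, 154 times in testis and 9621 times in uterus, against 796, 76 and 3911 reads of the 22 nt form without it. Reads that left the hairpin sequence with U only made up 63.8% of miR-24-3p in sperm (62.3 to 65.2%), 56.1% in testis (50.5 to 61.5%) and 62.1% in uterus (61.4 to 62.7%). Over the mature microRNAs with at least 100 reads the median was 4.06% in sperm (105 microRNAs), 4.85% in testis (85) and 6.98% in uterus (172). miR-24-3p ranked 3, 1 and 3 among them.

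miR-23b-3p carried added U more often than miR-23a-3p, and more often in the tissues than in sperm. Its U-tailed share was 24.7% in sperm (21.5 to 28.1%), 53.3% in testis (44.01 to 62.5%) and 40.7% in uterus (39.6 to 41.8%). That of miR-23a-3p was 9.57% in sperm (8.37 to 10.9%), 24.8% in testis (17.1 to 33.8%) and 13.7% in uterus (13.1 to 14.3%). For both forms the interval of sperm lay below those of testis and uterus, and that of testis lay above that of uterus. In sperm miR-27b-3p had added A in 18.2% of its reads (13.8 to 23.3%) and added U in 6.18%, and in uterus added A in 8.03% (6.84 to 9.35%) and added U in 13.5%. Added A was found in the other 3p arms too, in 8.18% of miR-24-3p reads in sperm and in 8.62% of miR-27a-3p reads in uterus, where added U was in 10.4%. An added base that equals the next base of the hairpin is counted as genomic, which lowers these shares. A misread last base or a base left from an adapter can be counted as added, which raises them. How adapters were trimmed is not stated in the labels.

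**Figure D5:**
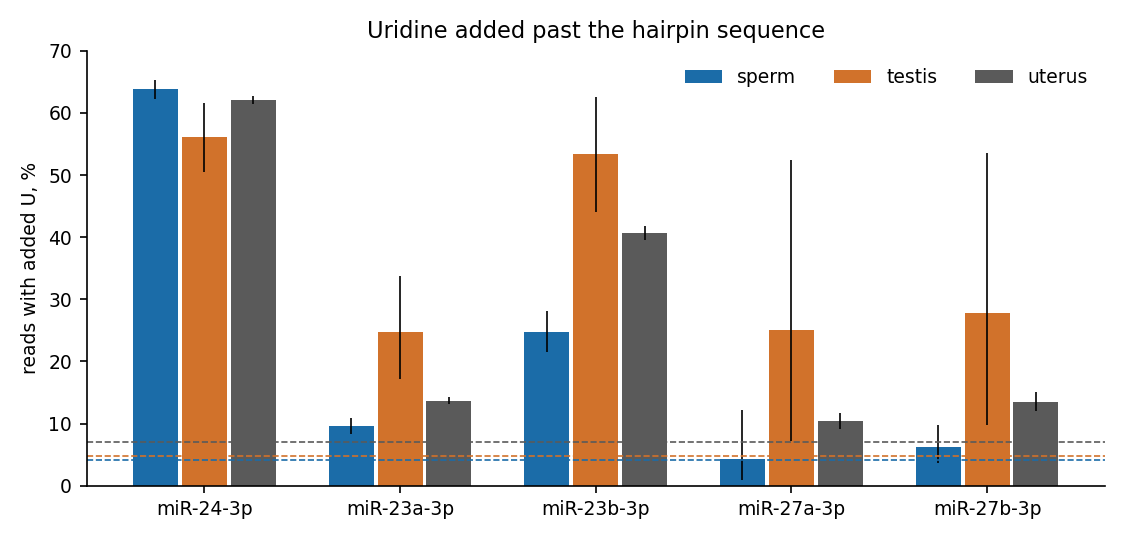
Share of reads of the 5 3p arms that end in added U in sperm, testis and uterus, with exact 95% intervals and, as dashed lines, the median over all mature microRNAs with at least 100 reads in the library. miR-24-3p lies between 56.1 and 63.8%, and miR-23b-3p lies above miR-23a-3p in each library.

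The 5′ ends, which set the seed, were exact for the 3p arms and loose for miR-23b-5p. Of the reads inside the hairpin that began within 2 bases of the annotated start, 94.2 to 99.2% of those of miR-23a-3p, miR-23b-3p, miR-27b-3p and miR-24-3p began on it wherever at least 50 such reads were counted, and so did 99.8% of those of miR-27a-3p in uterus. For miR-23b-5p in uterus 292 reads began on it and 188 began 1 base before it, 39.2% of 480 reads (34.8 to 43.7%). The form that begins earlier has the seed GGGUUCC, which is the seed of miR-23a-5p. In testis miR-23b-5p was seen in this earlier form alone, with 2 reads. miR-27b-5p began 1 base early in 19 of 211 reads in uterus (5.51 to 13.7%).

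The microRNAs with the most similar pattern over the 3 libraries were sought among 54 with at least 100 reads in each library, by the distance of their centred log2 levels, which rests on 3 values per microRNA. Nearest to miR-24-3p were miR-30a-5p, at a distance of 0.54, with 14569 RPM in sperm, 2231 in testis and 1652 in uterus, then miR-23a-3p at 0.60 and miR-146b-5p at 0.88. Nearest to miR-27b-3p were miR-23a-3p at 0.26, miR-24-3p at 0.52 and miR-146b-5p at 0.96. Nearest to miR-23b-3p were miR-146b-5p at 0.16, with 2399 RPM in sperm, 863 in testis and 924 in uterus, miR-101a-3p at 0.26 and miR-26a-5p at 0.58. On the scale of hairpin reads all of these had their highest level in sperm. The members they were matched to did too, so this follows from how they were chosen.

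Of 11 other microRNAs known from vessel walls, 8 could be matched, namely miR-126a-3p, miR-221-3p, miR-222-3p, miR-21a-5p, miR-92a-3p, miR-10a-5p, miR-100-5p and miR-210-3p. Of the 6 with enough reads in sperm or testis, 4 passed the 4-fold mark upward in sperm and 0 downward. The median log2 ratio of the 6 was 3.44. Over all microRNAs 32.8% passed upward and 25% downward. Among the 4, miR-126a-3p and miR-221-3p had enough reads in sperm only, with 139 and 138 against 1 and 14 in testis. Neither miR-222-3p, with 87 reads in sperm and 15 in testis, nor miR-210-3p, with 8 and 14, qualified. The minimum thus shaped the count and the median of the 6. Over all 8, sperm against uterus gave 3 higher and 1 lower, with a median of 1.498, beside 39.5% and 18.6% over all. Of 7 in testis against uterus 1 was higher and 3 were lower, with a median of −1.97, beside 29.9% and 10.4% over all. These values use hairpin reads as the denominator. With all reads the log2 ratios shift by −4.72 for sperm over uterus, −6.41 for testis over uterus and 1.69 for sperm over testis. With TMM factors those of sperm over uterus shift by −1.92. Both shifts of sperm over uterus exceed the median of 1.498 in size, so its direction depended on the scaling. Counts for this list under other scalings were not computed. miR-10a-5p, from a Hox cluster, stood at 53224 RPM in sperm, 584 in testis and 4002 in uterus. miR-221-3p, a microRNA of smooth muscle and endothelium, stood at 299.6, 64.9 and 1521 RPM. miR-92a-3p, of the miR-17-92 cluster, stood at 1057 RPM in sperm, 1479 RPM in testis and 365 RPM in uterus. On the scale of hairpin reads, to which the orders below apply, the list thus had no common order. miR-126a-3p, miR-21a-5p and miR-10a-5p were highest in sperm, and miR-92a-3p in testis, as was miR-210-3p on 14 reads there. miR-100-5p stood at nearly the same level in testis and sperm, at 501 and 484 RPM, against 176 in uterus. miR-221-3p and miR-222-3p were highest in uterus, in the order of miR-27a-3p.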

How the data were processed

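Adapters were joined to the small RNAs, which were then copied by RT-PCR and sequenced, per the labels' protocols. Each deposited table pairs a read sequence with its count, and the counts are whole numbers that differ in total between libraries, so they were taken as not normalized by the authors. mm9 is the build named in the submitters' processing notes. Trimming, size selection and software: not given in the sources used here. In sperm and in testis 1 line had no sequence and was left out.

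Members and lists were chosen with earlier results of these data known. Reads were matched over their first 20 bases to 1628 RefSeq mature microRNAs of at least 20 bases, which make 1622 distinct starts; reads of miR-23b-3p were those that follow the Mir23b hairpin for 20 bases from the stretch it shares with miR-23a-3p. Coordinates are those of GRCm38.p6 and were not converted. The table of mature entries lacks some abundant microRNAs, so the planned denominator was replaced by reads of 20 to 26 nt whose first 20 bases lie in a GENCODE M21 microRNA hairpin. Shares have exact Clopper-Pearson intervals, levels exact Poisson intervals and ratios conditional exact binomial intervals, all at 95%. A count of 0 was taken as at most 3 reads per library.

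Named items were all 11 members and, for 3 of them, the 3 microRNAs of nearest pattern (log2 of RPM + 1). Alternatives changed the denominator, the scaling factors (edgeR 4.0.16 for TMM, DESeq2 1.42.0 for its size factors, both over the mature microRNAs), the count minimum, the match and the reads counted; RefSeq mature reads as denominator and the addition of reads of 18 and 19 nt were chosen after the data were seen. The read matching was checked with simulated reads. Python 3.11.15, numpy 2.4.6, pandas 2.3.3, scipy 1.17.1, matplotlib 3.10.9 and R 4.3.3 were used.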

Additional observations from a re-analysis of the deposited data

Results flagged for a closer look

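The share of the a form of miR-27-3p lay on opposite sides of 50% in 2 libraries, at 20.1% in sperm and 55.7% in uterus. The difference was not tested, since each source has 1 library. In uterus the share fell below 50% when reads of 19 nt were added or only reads with the full mature sequence were kept.

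Reads of 18 and 19 nt, which the match over 20 bases leaves out, held 69.8% of the miR-27-3p reads in uterus, far above the 3 reads that a count of 0 allows. The same share was 2.55% in sperm.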

How the results depend on the processing

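No paired analysis was possible because each source has 1 library, and leaving out a replicate was not possible for the same reason. In sperm over testis the number of members at least 4-fold apart stayed within 1.5 times of its value under every alternative run. In sperm over uterus the 2 members at least 4-fold higher became 0 with all reads as denominator, with TMM factors and with DESeq2 size factors, and 4 with no minimum above 3 reads; the 1 lower member became 7 with all reads, 2 with TMM factors, and 0 with RefSeq mature reads or the full mature sequence. In testis over uterus the 0 lower members became 7 with all reads, 6 with TMM factors and 4 with DESeq2 size factors. These are the shifts of the denominators; the cause of the other changes was not tested. Log2 ratios of sperm over uterus that changed sign were, with all reads, −2.84 (miR-23-3p), −3.62 (miR-27-3p), −2.29 (miR-24-3p), −2.51 (miR-23a-3p), −3.55 (miR-23b-3p) and −2.77 (miR-27b-3p); with TMM factors −0.035 (miR-23-3p), −0.82 (miR-27-3p) and −0.75 (miR-23b-3p); with DESeq2 size factors −0.19 (miR-27-3p) and −0.13 (miR-23b-3p); and −0.59 for miR-27-3p with reads of 18 and 19 nt. With the full mature sequence miR-27a-3p turned to 1.96 in sperm over uterus and 0.33 in testis over uterus, since most of its reads in uterus are shorter. Among the 135 ratios of single members and families these 14 reversed, 64 stayed within their interval and 57 moved outside it.

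With the full mature sequence the share of miR-27a-3p was 27.7% in sperm and 19.5% in uterus, that of miR-23a-3p 56.8% in uterus, the 5p share 2.42% (Mir27a) and 8.32% (Mir27b) in uterus, the ratio of miR-27b-3p to miR-23b-3p 0.219 in sperm and 0.203 in uterus, and that of miR-27a-3p to miR-23a-3p 0.0374 in uterus. Reads of 19 nt took the share of miR-23a-3p to 63.6% and of miR-27a-3p to 35.8% in uterus, and there the ratio of miR-27a-3p to miR-23a-3p to 0.162 and of miR-27b-3p to miR-23b-3p to 0.507, and reads of 18 and 19 nt the ratio of miR-27-3p to miR-23-3p to 0.573 there. Reads of 20 to 24 nt took the 5p share of Mir27b in sperm to 1.08%. With reads inside the hairpin the 5p shares in uterus were 9.72% (Mir23b) and 13.02% (Mir27b), the ratio of miR-27a-3p to miR-23a-3p 0.0759 in testis and 0.171 in uterus, that of miR-27b-3p to miR-23b-3p 0.316 in uterus, and the 23 nt share of miR-24-3p 0.0944% (sperm), 0% (testis) and 0.953% (uterus), since the added U was left out. Distinct sequences in place of reads, which weight rare forms, gave shares of miR-23a-3p of 60.0% (sperm), 56.0% (testis) and 48.5% (uterus), of miR-27a-3p of 33.3% in sperm and 51.04% in uterus, 5p shares of 25.0% (Mir27b, sperm), 16.0% (Mir23b), 3.92% (Mir27a) and 20.3% (Mir27b) in uterus, and ratios of miR-27a-3p to miR-23a-3p of 0.25 (sperm), 0.643 (testis) and 0.766 (uterus) and of miR-27b-3p to miR-23b-3p of 0.75, 0.727 and 0.691. Depth limits testis most, where miR-27a-3p and miR-27b-3p rest on 16 and 18 reads.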

Other observations

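Reads inside the 6 hairpins that began more than 2 bases from the start of either arm were few. Mir23a had 6 of 1942 hairpin reads in sperm and 32 of 13801 in uterus, Mir23b had 12 of 5897 in uterus, Mir27a had 3 of 9102 and Mir27b 3 of 11404 there. No read of this kind was found in Mir27a, Mir27b or either miR-24 precursor in sperm or testis.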
